A study of Mus musculus with 4 samples.

Results

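The distal end of mouse chromosome 11 carried 702 CTCF peaks in hippocampus, 4.65% of the 15109 peaks in the deposited list, on 1.08% of the length that the peaks of all chromosomes span. A peak was a member when its midpoint lay at base 94000000 of chromosome 11 or beyond (genome build mm9). Membership follows from position alone, but the boundary itself was drawn with the peak counts along the chromosome known. The chromosome carried 1406 peaks in all, so 49.9% of them lay in the last 27.4 Mb, which was 23.2% of the chromosome's span from first to last peak. The hippocampi came from C57/Bl mice. CTCF was immunoprecipitated from hippocampal chromatin with a Millipore anti-CTCF antibody in 2 libraries, and 2 input libraries of hippocampal chromatin were sequenced without immunoprecipitation. No treatment, age or genotype beyond the strain is given in the labels. Hippocampus is a mixed tissue, and the peaks do not tell neurons from glia. The 4 libraries were combined into 1 list, so neither a replicate error nor a test over animals can be given for any value, and the read depth behind each peak is unknown.

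CTCF is a zinc finger protein that recognises a long, asymmetric DNA motif. At many of its sites the cohesin complex is halted while it extrudes a chromatin loop, and pairs of such sites mark the borders of loops and domains. In neurons CTCF is known for its part in the expression of clustered protocadherin genes and of genes induced by activity. Mouse chromosomes have their centromere at the low-coordinate end, so the region described here is the part farthest from it.

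The distal end of chromosome 11 is rich in genes. In RefSeq's annotation of GRCm38.p6, 583 protein-coding genes were listed from Cacna1g, which encodes a T-type calcium channel, to Fasn, which encodes fatty acid synthase. Read away from the centromere, Col1a1, a collagen chain of bone and skin, came after Cacna1g. The 10 Hoxb genes, which pattern the body axis in the embryo, followed between Ttll6 and Skap1. Stat3, a transcription factor of cytokine signalling, came next and was followed by the DNA repair gene Brca1. The progranulin gene Grn, the astrocyte filament gene Gfap and the tau gene Mapt followed in this order. Only 3 protein-coding genes, 2 of them the potassium channel genes Kcnj16 and Kcnj2, were listed between the kinase gene Map2k6 and Sox9. Sox9 encodes a transcription factor of cartilage, testis and glia, and it is known for enhancers that lie far from it. Grin2c, an NMDA receptor subunit, and the adaptor gene Grb2 came after Sox9. Toward the end lay Rbfox3, which encodes the neuronal marker NeuN, and then the actin gene Actg1. That annotation is on another build than the peaks. It was read for names and order, and no peak or window below is assigned to a gene.

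Peak density in the distal region was 25.6 per Mb (95% Poisson interval 23.8 to 27.6). On chromosome 11 below the boundary it was 7.74 per Mb (7.18 to 8.33), from 704 peaks over 91.0 Mb. The ratio was 3.31 (exact conditional 95% interval for 2 counts, 2.98 to 3.68). The stretch of equal length just below the boundary held 324 peaks, or 11.8 per Mb (10.6 to 13.2). This density was higher than that over the whole lower part. These intervals cover counting error only and treat peaks as independent, which neighbouring peaks are not. Since the boundary was drawn with the counts known, the ratio describes this division and does not test it.

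The excess held for strong and weak peaks alike. Strength here means the authors' peak score, which has no stated scale and ranks peaks inside this list. For scores of 163 or more, the upper quartile of the whole list, the ratio of densities was 3.20 (2.61 to 3.93). For scores under 62, the lower quartile, it was 3.38 (2.69 to 4.26). For scores of 569 or more, the top 5% of the list, it was 2.70 (1.68 to 4.32), from 35 distal peaks and 43 below. The 4 intervals, that over all peaks included, overlapped.

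**Figure D1:**
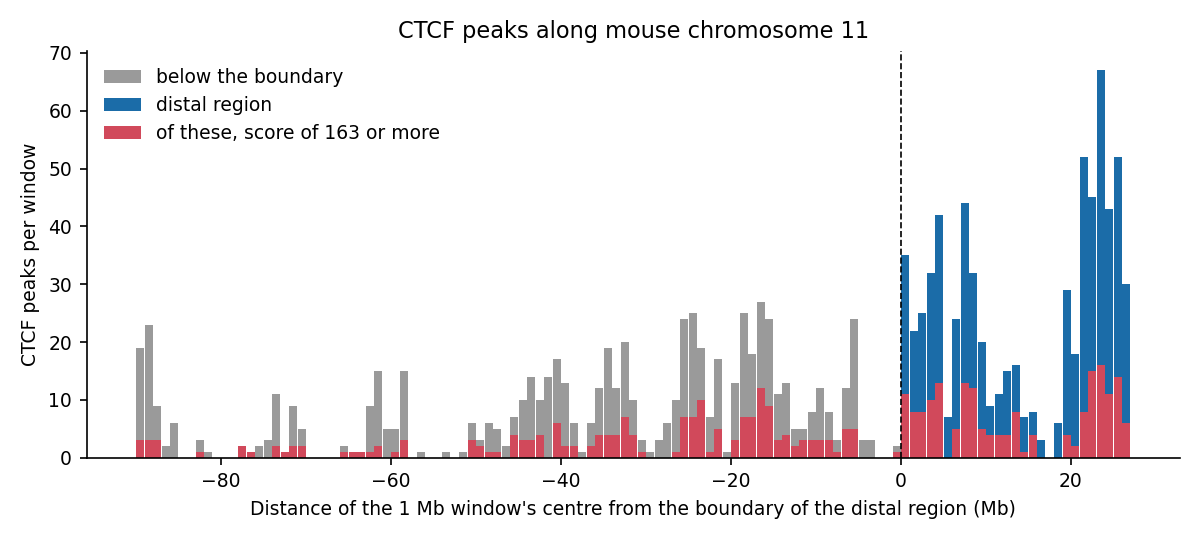
Number of CTCF peaks in each full 1 Mb window of chromosome 11 (y axis), against the distance of the window's centre from the start of the distal region in Mb (x axis). Grey bars are windows below the boundary, blue bars are distal windows, and the red part of a bar counts peaks with a score of 163 or more; 12 of the 27 distal windows stood above the fullest window below the boundary, which held 27 peaks.

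Counts per 1 Mb showed 2 peak-rich blocks with a peak-poor stretch between them. The 27 full distal windows held 25.7 ± 17.5 peaks (mean and SD over windows), with a median of 24 and a range of 0 to 67. The 90 full windows below the boundary held 7.53 ± 7.51, with a median of 5 and a range of 0 to 27. More than 20 peaks were found in 15 distal windows (55.6%) and in 7 windows below (7.78%). Neighbouring distal windows had similar counts (Spearman's rho = 0.64 and Pearson's r = 0.60 over 26 adjacent pairs, given as a description since adjacent pairs share windows). Of the 33 full windows with 40 or more peaks in the whole list, 7 (21.2%) were distal windows of chromosome 11, which make up 1.07% of all full windows.

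The fullest window, from 117000001 to 118000000, held 67 peaks (95% Poisson interval 51.9 to 85.1), and 52 of them had another peak within 10 kb. The windows from 115000001 and from 119000001 held 52 each (38.8 to 68.2). They were followed by the window from 116000001 with 45 peaks and the window from 101000001 with 44. These 5 windows together held 260 peaks, 37.5% of those in full distal windows. Their counting intervals overlapped, and their order was not tested. Among these 5 windows, the share of peaks with a score of 163 or more ran from 15.4% to 33.3%, against 27.1% of all distal peaks. The lowest share was in the window from 115000001, with 8 of 52 peaks. The highest was in the window from 116000001, with 15 of 45, and 5 of these were in the top 5% of the list. These extremes were picked after the values had been seen, and their difference was not tested.

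At a scale of 100 kb the densest spot was from 115000001 to 115100000, with 17 peaks. Its first peak began at 115014949 and its last ended at 115098196, and the median distance between adjacent midpoints was 3.42 kb. Together the 17 peaks covered 10.4% of the 100 kb, against 1.497% of the distal region as a whole. Scores in this spot had a median of 90, the lowest being 26 and the highest 459. That median was close to the 94 of all distal peaks and the 93 of the whole list. The strongest of the 17 peaks lay at 115063248 to 115064512. The windows of 100 kb from 117100001, 117900001 and 119100001 held 12 peaks each, and the highest score in them was 392. No 100 kb window below the boundary held more than 10 peaks. Of 274 full 100 kb windows in the distal region 68 (24.8%) were empty, against 560 of 909 below it (61.6%).

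Between the blocks, from 104 to 113 Mb, 75 peaks were spread over 9 Mb, or 8.33 per Mb (6.55 to 10.4). This was close to the density of chromosome 11 below the boundary. The block from 94 to 104 Mb held 283 peaks, or 28.3 per Mb (25.1 to 31.8). The block from 113 Mb to the last peak, which ended at 121406531, held 344 peaks over 8.41 Mb, or 40.9 per Mb (36.7 to 45.5). Within the distal region, the middle part was the longest run of adjacent windows with under 20 peaks each. This division was made after the counts had been seen, so the densities describe the blocks and do not test them.

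The only empty full window in the distal region was that from 111000001 to 112000000. It lay inside the longest peak-free stretch, which ran from 110630162 to 112451055 and measured 1.82 Mb. The peaks at its edges were weak, with scores of 43 and 62. All 9 peaks in the 2 windows on either side of the empty one scored 154 or less, and none of them had another peak within 10 kb. The next stretches ran from 109529297 to 110205870 (677 kb), from 104527986 to 105193065 (665 kb) and from 105266214 to 105795758 (530 kb). The fifth, from 99184272 to 99625119, measured 441 kb and was the only one of the 5 outside the poor middle part. It lay in a window of 7 peaks, from 99000001, in which no score exceeded 157, while the windows on its sides held 42 and 24. Long stretches were rarer than below the boundary. There 33 stretches over 500 kb took up 46.7% of the span and 14 exceeded 1 Mb, against 4 stretches and 13.5% in the distal region.

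The last of the long stretches below the boundary ended close to it. It ran from 90559369 to 93828956 and measured 3.27 Mb. The peaks just outside the distal region lay at 93828957 to 93830258, with a score of 1536, and at 93995697 to 93996086, with a score of 95. The first peaks inside it lay at 94036945 to 94037421, with a score of 107, and at 94093412 to 94094036, with a score of 121. The rise in density thus followed an empty stretch, and moving the boundary down to 90 Mb added only 5 peaks.

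**Figure D2:**
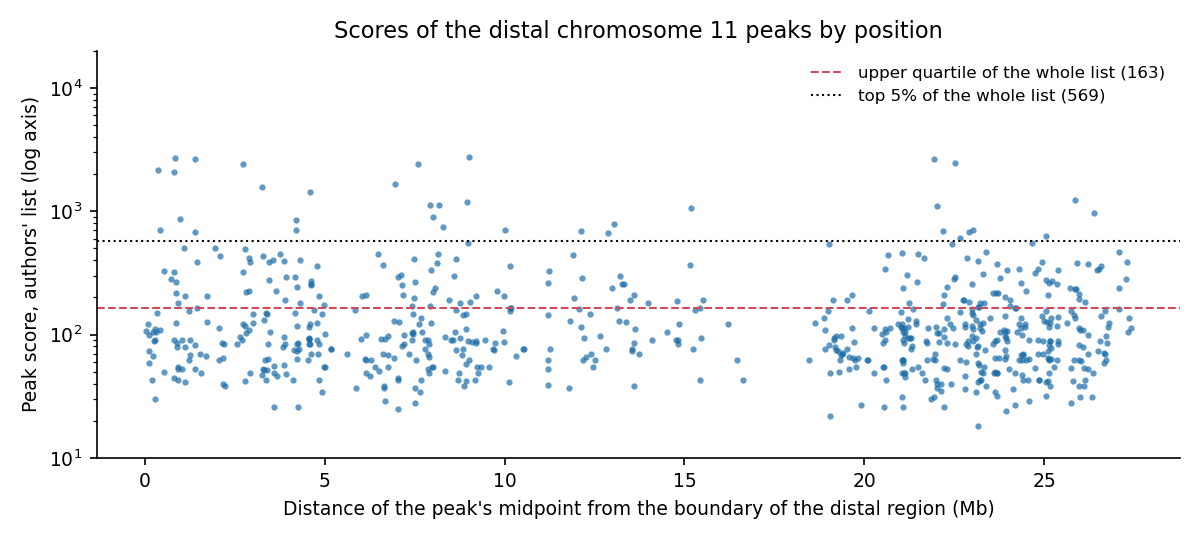
Score of each of the 702 distal peaks (y axis, log scale, authors' score) against the distance of its midpoint from the start of the distal region in Mb (x axis). Each point is 1 peak, the dashed line is the upper quartile of the whole list (163) and the dotted line the start of its top 5% (569). Of the 35 points at or above the dotted line, 20 lie in the first 10 Mb, which holds 283 of the 702 peaks. The empty band is the 1.82 Mb stretch without peaks.

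The strongest distal peak at 103019776 to 103021048, was 1273 bp wide, scored 2728 and ranked 9 in the whole list. A companion with a score of 185 lay 2.34 kb away. The second, at 94839799 to 94841012, scored 2678 and ranked 12 in the list. Its nearest neighbour was 19.1 kb away. The third, at 115947623 to 115949675, scored 2661 and was 2053 bp wide, and the fourth, at 95394272 to 95396151, scored 2651 and was 1880 bp wide. Both had a weak neighbour within 5 kb, with scores of 31 and 53. These first 4 scores differed by less than 100, and with no replicate values their order cannot be tested.

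A further 5 peaks scored over 2000. They lay at 116531812 to 116533125 (score 2446), at 101593657 to 101595225 (score 2417), at 96722685 to 96723743 (score 2403), at 94347160 to 94347973 (score 2178) and at 94797147 to 94799348 (score 2063). The last of these and the second strongest peak were 42.2 kb apart, and the first full window, from 94000001, held 3 of the 9 peaks over 2000. The peak at 94347160 was narrow for its score, at 814 bp, while that at 94797147 was the widest of the 20 strongest, at 2202 bp. The peak at 101593657 stood apart, with 29.2 kb to its nearest neighbour.

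The remaining 11 of the 20 strongest peaks scored from 905 to 1660. Among them were the peaks at 100956298 to 100957475 (score 1660), 97261430 to 97262139 (score 1568) and 98578640 to 98580095 (score 1425). The last of these had 11 other peaks within 50 kb, the most of the 20. At 119852475 to 119853080 a peak scored 1221, at 102963857 to 102964634 one scored 1181, and at 102170170 to 102170765 one scored 1121. Scores of 1116 and 1092 belonged to the peaks at 101922077 to 101923542 and at 116028968 to 116029902. The only one of the 20 in the poor middle part lay at 109191982 to 109193235, with a score of 1069 and 33.1 kb to its nearest neighbour. The last were at 120376372 to 120377704 (score 973) and at 101999554 to 102000150 (score 905), just above the next peak's 866. Of the 20, 14 lay in the block from 94 to 104 Mb, 1 in the middle part and 5 in the block from 113 Mb on. These parts, drawn after the counts had been seen, held 283, 75 and 344 of the 702 distal peaks. The split of the 20 was not tested. For 14 of the 20, the nearest peak was under 10 kb away, as it was for 415 of all 702 distal peaks (59.1%). With 20 peaks this does not set the strongest apart.

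Distal chromosome 11 held 9 of the 47 peaks in the whole list that scored over 2000 (19.1%), 18 of the 261 over 1000 (6.90%) and 4.65% of all peaks. Chromosome 11 below the boundary held 4 peaks over 2000 and 13 over 1000. The last 27.4 Mb of chromosomes 4, 5 and 8 held 1 peak over 2000 each, and 12, 8 and 6 peaks over 1000. The contrast with these ends was thus smaller at the lower threshold. The highest score at the end of chromosome 4 was 3590, above the 2728 of distal chromosome 11. These threshold counts are small and were not tested. Scores at the ends of the remaining chromosomes were not summarised, that of chromosome 15 with its 522 peaks included.

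**Figure D3:**
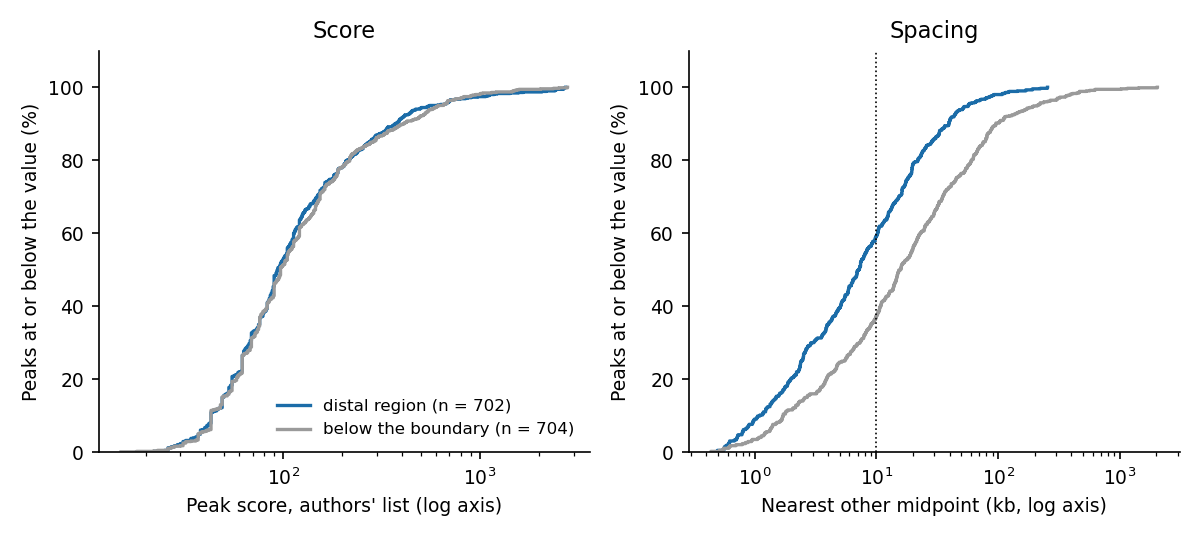
Cumulative share of peaks (y axis, %) by the authors' score (left, log scale) and by the distance to the nearest other peak midpoint in kb (right, log scale). Blue lines are the 702 distal peaks and grey lines the 704 peaks below the boundary, and the dotted line marks 10 kb; the score curves run together, with medians of 94 and 97, while at 10 kb the spacing curves stand at 59.1% and 37.5%.

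Across all its peaks, the distal region did not stand apart by score from chromosome 11 below the boundary. The median score was 94 (exact binomial 95% interval 90 to 102) in the distal region and 97 (90 to 105) below the boundary, against 93 in the whole list. The middle 50% of distal scores ran from 62 to 178.5, and those below from 62 to 183. A score of 163 or more was reached by 190 distal peaks, or 27.1% (exact Clopper-Pearson interval 23.8 to 30.5), and by 28.0% (24.7 to 31.5) below. In the top 5% of the list were 4.99% (3.50 to 6.87) of distal peaks and 6.11% (4.46 to 8.14) of those below. All of these intervals overlapped between the 2 parts. Scores were coarse, with 273 distinct values among the 702 distal peaks and 31 peaks at the commonest, 62, so a gap of 3 in the median is small on this scale. In the stretch of equal length just below the boundary the median score was higher, at 106 (97 to 121). There 31.5% (26.5 to 36.85) of peaks scored 163 or more. Both intervals overlapped those of the distal region.

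Widths were alike as well. The median width was 473 bp (462 to 485) in the distal region and 472 bp (458 to 491) below. Peaks wider than 1 kb made up 8.97% (6.97 to 11.3) of distal peaks and 6.68% (4.95 to 8.78) of those below. In the whole list, the distal peaks included, the share was 5.75% (5.39 to 6.14). That interval did not overlap the distal one, and the difference was not tested. The widest distal peak measured 2626 bp. Wider peaks had higher scores within the distal region (Spearman's rho = 0.59 over 702 peaks) and below it (rho = 0.64 over 704 peaks). Width and score come from the same signal, and both correlations are given as descriptions.

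Strong peaks made up a larger share of the first block than of the last, a difference that was not tested. In the block from 94 to 104 Mb, 7.07% (4.37 to 10.7) of peaks were in the top 5% of the list, against 2.91% (1.40 to 5.28) in the block from 113 Mb on. At 163 or more the shares were 30.04% (24.8 to 35.7) and 23.3% (18.9 to 28.1). The intervals overlapped in both cases. The 75 peaks of the middle part had a median score of 121 (90 to 154), against 92 (89 to 105) and 91.5 (86 to 104) in the blocks. These intervals overlapped. Of the middle part's peaks 10.7% (4.72 to 19.9) scored under 62, against 22.6% (17.9 to 27.9) in the first block and 24.4% (19.97 to 29.3) in the last. In the whole list it was 21.1%. The middle part was drawn after the counts had been seen, and its differences from the blocks were not tested. Across the 26 distal windows with a peak, the count of peaks was nearly unrelated to their median score (Spearman's rho = -0.05, Pearson's r = -0.20).

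Distal peaks lay closer to each other than those on the rest of the chromosome. Another midpoint lay within 10 kb of 415 of the 702 distal peaks, or 59.1% (55.4 to 62.8), against 37.5% (33.9 to 41.2) below the boundary and 42.9% in the whole list. Within 2 kb the shares were 20.1% and 11.6%, and within 100 kb 98.01% and 90.2%. The median distance to the nearest peak was 7.17 kb in the distal region and 15.6 kb below. Adjacent distal midpoints were 16.0 kb apart at the median and 39.0 kb on average, against 37.1 and 129 kb below. The median distance was thus 0.41 of the mean in the distal region and 0.29 of it below, where long gaps raised the mean more.

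Peak density differed between the 2 parts, so windows of like peak count were set side by side, a comparison added after seeing the data. In windows of 20 to 29 peaks, 50% (40.7 to 59.3) of the 120 distal peaks and 51.0% (43.7 to 58.3) of the 192 peaks below had another within 10 kb. In windows of 10 to 19 peaks the shares were 33.3% (21.7 to 46.7) and 33.9% (28.7 to 39.4). In windows of 1 to 9 peaks they were 32.5% (18.6 to 49.1) and 24.7% (18.4 to 31.9). The 11 distal windows with 30 peaks or more, which had no counterpart below, reached 67.3% (62.9 to 71.5). At like counts the intervals of the 2 parts overlapped.

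**Figure D4:**
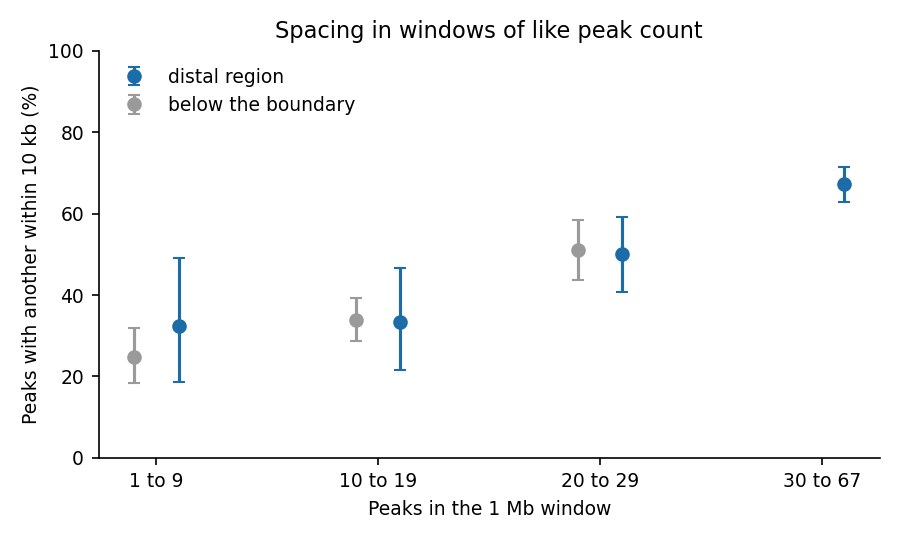
Share of peaks with another midpoint within 10 kb (y axis, %) in 1 Mb windows grouped by their number of peaks (x axis). Blue points are the distal region, grey points the windows below the boundary, and bars are exact Clopper-Pearson 95% intervals; at 20 to 29 peaks the points stand at 50% and 51.0%, and only the distal region has windows of 30 or more, at 67.3%.

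Peaks with a close neighbour had a slightly lower median score in both parts. In the distal region the median was 90 (86 to 97) for the 415 peaks with another within 10 kb and 105 (92 to 115) for the 287 others. Below the boundary it was 93 (85 to 109) and 99 (92 to 108). The intervals overlapped, and the differences were not tested. Scores of adjacent distal peaks up to 10 kb apart were unrelated (Spearman's rho = -0.01 over 279 pairs), and below the boundary the value was 0.14 over 159 pairs.

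Some close neighbours were nearly contiguous. Joining peaks with under 1 kb between them turned the 702 distal peaks into 639 regions, of which 54 held more than 1 peak. These 54 took in 117 peaks, or 16.7% of distal peaks, against 8.10% below the boundary. Below the boundary 2 regions held 3 peaks or more, and the largest held 4. The largest distal regions held 3 peaks, and there were 9 of them. In the strongest, from 96721495 to 96724861, the peak with a score of 2403 stood between peaks with scores of 322 and 122. In the next, from 94797147 to 94800846, a score of 2063 was followed by scores of 90 and 44. In the third, from 116669421 to 116673081, the scores were 62, 151 and 611. How far such groups are separate sites or 1 broad signal divided by the peak caller was not tested.

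At the other extreme, the most isolated distal peak lay at 110205871 to 110206401, with 255 kb to its nearest neighbour and a score of 121. It was followed by the peaks at 108517400 to 108517848 (254 kb, score 105), at 99625120 to 99625477 (222 kb, score 69) and at 112451056 to 112451457 (192 kb, score 62). None of the 4 reached a score of 163.

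Set beside the ends of the other chromosomes, distal chromosome 11 was second in number of peaks. The length used for every end was that of the chromosome 11 region, drawn with its counts known. The rank therefore describes this choice of length and does not test it. The last 27.4 Mb of chromosome 4 held 775 peaks, or 28.3 per Mb (26.3 to 30.3), and that of chromosome 15 held 522. Chromosome 5 had 485 peaks there and chromosome 8 had 416, while X had 29. The distal peaks of chromosome 4 were as closely spaced, with 62.2% (58.7 to 65.6) within 10 kb of another. They were weaker by share, since 20% (17.2 to 23.0) of them scored 163 or more, an interval that did not overlap that of distal chromosome 11 (23.8 to 30.5). On chromosomes 5 and 8 that share was 24.9% (21.2 to 29.1) and 22.4% (18.4 to 26.7), with intervals that did overlap it. Close spacing was also found there, with 51.1% (46.6 to 55.7) and 57.7% (52.8 to 62.5) within 10 kb of another. The median distance to the nearest peak was 9.86 kb on chromosome 5 and 6.75 kb on chromosome 8, against 7.17 kb on distal chromosome 11. Score and spacing were summarised for these ends only, and no test was made between chromosome ends.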

How the data were processed

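CTCF ChIP-seq peaks of mouse hippocampus were analysed from 1 list that the authors deposited for 2 ChIP and 2 input libraries combined. Per the submitters' processing notes, cutadapt, MACS2 2.0.10.20131216 and mm9 were used. Per the file headers, the list is in narrowPeak style. The score is the authors' own, as deposited, on a scale that no header or label states. For the aligner, the handling of duplicates and the peak threshold, the sources used here give nothing. Starts and ends, deposited in BED form, were printed as positions counted from 1. Spans ran from the first to the last peak, and windows fully inside them were counted by midpoint. Named items were the 20 highest scores, the 5 fullest windows, empty windows, the 3 fullest 100 kb windows (4 with ties), the 5 longest stretches and 3 joined regions. The 4 most isolated peaks were chosen after their values were seen. Python 3.11.15, pandas 2.3.3 and scipy 1.17.1 were used, and the functions were tested on simulated data. Members, boundary and lists were chosen with earlier results of these data known. With 1 combined list no test over samples could be made. No sequence is printed, since no mm9 genome was used here.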

Additional observations from a re-analysis of the deposited data

How the results depend on the processing

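The ratio of distal to lower density stayed above 1 in each of its 8 alternatives. Since the boundary was drawn with the counts known, this describes the division and does not test it. The ratio was 2.80 with the boundary at 90 Mb and 2.92 at 98 Mb. Without the 3 fullest distal windows, and with the lower part kept whole, it was 2.81. Over windows with a peak (added after seeing the data) it was 2.95. All 4 values lay outside the counting interval of the main value. The number of distal peaks fell to 357 at scores of 93 or more and 190 at 163 or more, as the filters require. The share with a close neighbour was 39.6% within 5 kb, 93.9% within 50 kb, 52.0% after joining and 34.5% at scores of 93 or more. Below the boundary it was lower in each case, at 24.7%, 76.4%, 32.9% and 23.8%. At scores of 163 or more the share of windows with over 20 peaks was 0 in both parts. At 93 or more there were 8 stretches over 500 kb, and the longest measured 2.44 Mb. After joining, the median score was 101 in the distal region and 99.5 below, so the sign of this small difference turned. In all, 17 of 29 alternatives stayed within the interval, or within 1.5 times the count, of the main value. No paired analysis was possible because all 4 libraries were merged, which also prevented the alternatives without 1 replicate. Depth is unknown, so an empty stretch does not show absent binding.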
